A study of Mus musculus with 2 samples.

Results

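Homeostatic microglia are recognized by a small set of transcripts, and 10 of these genes were followed here through scRNA-Seq of spinal microglia: Tmem119, Cx3cr1, Sparc, Olfml3, Cst3, Slc2a5, Slco2b1, Ltc4s, Golm1 and Crybb1. They were taken by symbol, and all 10 were found once each among the 32285 genes of the count tables. Microglia were sorted from the lumbar spinal cord of 8- to 10-week-old male mice by the gate CD45lo, CD11b hi, CX3CR1 hi after collagenase IV digestion and a Percoll gradient, and their RNA was read from the 3′ end in droplets. The control library, labelled WT in GEO, came from mice that the study gives as Eif4ebp1fl/fl, with no Cre named. The 4E-BP1–cKO library came from Eif4ebp1fl/fl:TMEM119CreERT2 mice, in which the translational repressor 4E-BP1 was to be deleted in microglia. Both groups received 4-OHT, the active form of tamoxifen that switches CreERT2 on, from P4 to P9. There was 1 library per genotype, the sources used here do not give the number of mice behind each, and no comparison between genotypes could be tested. All intervals below are exact 95% intervals. Those of levels and ratios cover counting error only, and those of shares of cells cover the sampling of cells within a library. Neither covers differences between mice or libraries.

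Microglia in the undisturbed CNS survey their surroundings with fine processes and express a set of genes that sets them apart from other macrophages, and much of this set is lost when they are cultured or react to injury. The 10 genes cover several roles. Tmem119 encodes a surface protein used as a microglial marker, and Cx3cr1 encodes the receptor for the neuronal chemokine fractalkine. Cst3 (cystatin C, an inhibitor of cysteine proteases), Sparc (a collagen-binding matrix protein) and Olfml3 (an olfactomedin-domain matrix protein) encode secreted proteins. Slc2a5 (the fructose transporter GLUT5) and Slco2b1 (an organic anion transporter) encode membrane transporters, Ltc4s encodes leukotriene C4 synthase, Golm1 encodes a Golgi membrane protein, and Crybb1 encodes a beta-crystallin best known from the lens. In a few respects the design touches the genes themselves. By the genotypes given for this experiment, the TMEM119CreERT2 allele was present only in the 4E-BP1–cKO mice. This allele and the loss of 4E-BP1 then cannot be told apart for Tmem119. Other experiments of the study used TMEM119CreERT2 mice as controls. The sort gate selected cells on CX3CR1 protein. Cst3 and Sparc are also expressed by other cells of the CNS.

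RefSeq promoter windows, 250 bases before to 50 bases after a start site, were matched for 9 of the 10 genes on GRCm38.p6, in 11 windows. The windows of Cst3 and Slco2b1 are shown because these genes lay at opposite ends of the comparison of ribosome-poor cells described below, in which the former was lowest and the latter near its level in other cells. Capitals mark the PU.1-type core GAGGAA, the similar core GGAAGT, the AP-1 motif TGANTCA, or the SMAD-type motif CAGACA, each searched for on both strands. The Cst3 window is chr2:148875463-148875762 and that of the most upstream Slco2b1 start site is chr7:99711291-99711590, both on the minus strand and printed 5′ to 3′.
Cst3: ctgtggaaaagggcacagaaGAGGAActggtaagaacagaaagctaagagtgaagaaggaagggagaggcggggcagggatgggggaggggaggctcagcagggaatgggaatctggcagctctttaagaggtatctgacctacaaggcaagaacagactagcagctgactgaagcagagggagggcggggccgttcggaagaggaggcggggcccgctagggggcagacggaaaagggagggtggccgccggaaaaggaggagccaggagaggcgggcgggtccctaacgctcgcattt
Slco2b1: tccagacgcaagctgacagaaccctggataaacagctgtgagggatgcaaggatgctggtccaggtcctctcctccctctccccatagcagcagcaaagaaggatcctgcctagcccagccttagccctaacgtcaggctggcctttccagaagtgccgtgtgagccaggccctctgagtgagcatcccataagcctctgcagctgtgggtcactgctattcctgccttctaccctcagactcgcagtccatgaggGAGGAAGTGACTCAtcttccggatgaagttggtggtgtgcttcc
The Cst3 window held 1 GAGGAA, beginning at base 21. The Slco2b1 window held GAGGAA from base 257, overlapped by GGAAGT from base 259, itself overlapped by TGANTCA from base 264, just inside the transcript. Either PU.1-type core was present for 4 of the 9 matched genes (Cst3, Golm1, Ltc4s and Slco2b1), and in 43.4% of all 32817 promoter windows of 300 bases. TGANTCA was present for 1 of the 9 genes against 7.81% of all windows, and CAGACA for 4 of the 9 (Crybb1, Slc2a5, Slco2b1 and Sparc) against 21% of windows. Slco2b1 entered with 3 windows. These are descriptions of few genes, and a match is a run of letters, not a bound site.

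Filters on detected genes (over 300) and on mitochondrial UMIs (under 5%) left 1147 of 1216 control and 445 of 474 4E-BP1–cKO barcodes, with no barcode in common. They held 4803562 and 1734332 UMIs, with medians of 3053 and 2776 UMIs per cell. The median share of UMIs from ribosomal protein genes was 2.22% in control and 3.53% in 4E-BP1–cKO cells, and that of 24 immediate early genes was 1.98% and 2.59%. Markers of other cell types were scarce. The 7 oligodendrocyte markers summed to 91.2 and 143 UMIs in 1000000 in control and 4E-BP1–cKO cells, the 7 astrocyte markers to 108 and 73.8, the 7 endothelial markers to 91.8 and 42.7, and the 8 border macrophage markers to 21.2 and 8.65. Those of monocytes, neurons, fibroblasts and pericytes, T cells, B cells and neutrophils each summed to between 0.833 and 10.96 in either library. At least 3 markers of 1 such type were found in 21 control and 4 4E-BP1–cKO cells. These cells also carried the homeostatic genes, with a median of 8 and 3 of the 10 detected.

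Cst3 made up most of the signal of the set. Of the UMIs of the 10 genes it took 76.0% in control and 79.7% in 4E-BP1–cKO cells, and it was the gene with the second most UMIs of all genes in both. Its level was 16044 UMIs per 1000000 UMIs (counts per 1000000, CPM; 15931 to 16158) in control cells. Cx3cr1 followed at 2075 CPM (2034 to 2116) and Sparc at 1082 (1053 to 1112). A middle group of 4 genes lay close together: Olfml3 at 436 CPM (418 to 455), Tmem119 at 433 (415 to 452), Golm1 at 383 (366 to 401) and Slco2b1 at 380 (363 to 398). Within it, Olfml3 could not be separated from Tmem119 by counting error, nor Golm1 from Slco2b1. Ltc4s at 139 CPM (129 to 150), Slc2a5 at 79.9 (72.1 to 88.4) and Crybb1 at 66.0 (58.9 to 73.7) were the scarcest. Each captured molecule is counted once from its 3′ end, so these levels were not divided by transcript length. Whether intronic reads were counted is not given, so levels of genes of unlike span may not compare directly.

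**Figure D1:**
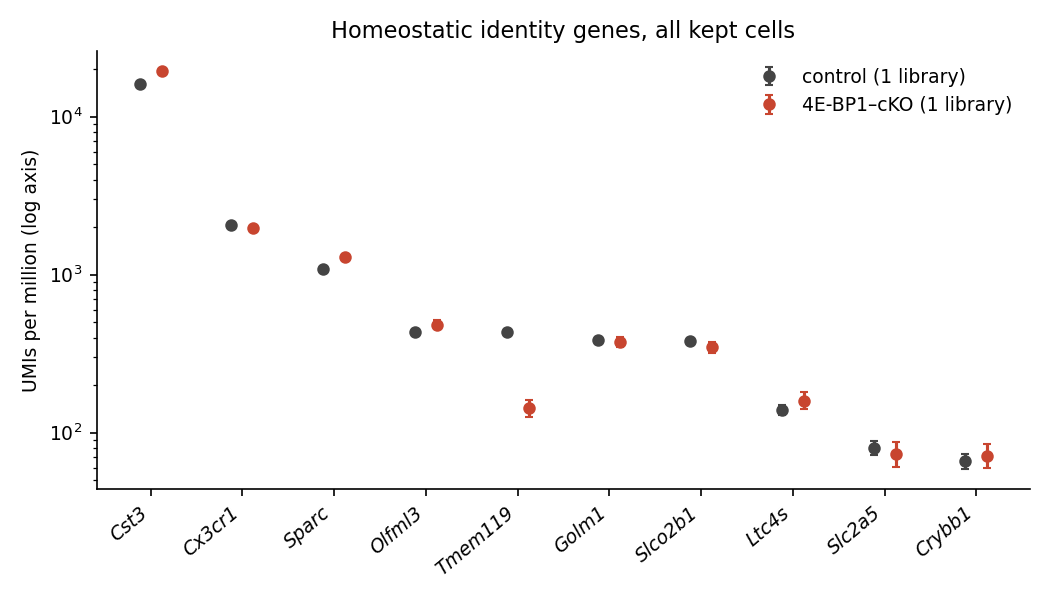
Level of each gene in all kept cells, in CPM on a log axis, with 1 point per library and exact Poisson 95% intervals (often smaller than the point). Tmem119 is the gene whose points lie apart, at 433 CPM in control and 142 in 4E-BP1–cKO cells.

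The comparison of the genotypes asks whether removing 4E-BP1, which releases cap-dependent translation, went along with a loss of the homeostatic transcripts. Of the 10 genes, 1 differed by more than 1.5-fold between the libraries. Tmem119 (chr5:113793729-113800396 on GRCm38.p6) had 2082 control UMIs and 247 4E-BP1–cKO UMIs. These are 433 and 142 CPM, a ratio of 0.329 (0.287 to 0.375), the third lowest ratio of the 4887 genes with at least 200 UMIs over both libraries. Of these genes, 3.21% were over 1.5-fold lower and 1.19% over 1.5-fold higher in the 4E-BP1–cKO library. The median log2 ratio was 0.041 for the 10 genes and −0.032 for all genes tested. Counted per cell, 59.4% of control cells (56.5 to 62.2) and 33.9% of 4E-BP1–cKO cells (29.5 to 38.5) had a Tmem119 UMI. After every cell was thinned to 872 UMIs, the shares were 25.0% (22.5 to 27.8) of 1058 cells and 11.2% (8.19 to 14.8) of 375 cells, while 89 control and 70 4E-BP1–cKO cells below this depth were left out. No cell type without Tmem119 was sampled in numbers that would give the share of cells with free RNA, so that background is not known.

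The lower Tmem119 level was present at every depth and every ribosomal share examined. In cells of under 1500 UMIs it was 355 CPM in control and 134 in 4E-BP1–cKO cells. In cells of 6000 UMIs or more it was 504 and 159. The ratio was 0.377 (0.202 to 0.661) in the shallowest and 0.316 (0.265 to 0.375) in the deepest of 4 depth classes, with 0.343 and 0.332 between them. By ribosomal share of the cell, it was 0.369 (0.268 to 0.499) under 2.5%, 0.330 (0.274 to 0.393) from 2.5 to 8%, 0.287 (0.210 to 0.384) from 8 to 14% and 0.190 (0.0877 to 0.366) at 14% or more. The 4 genes within 200 kb of Tmem119 on chromosome 5 that passed 200 UMIs were within 1.5-fold. Selplg, 17.4 kb away and itself a microglial gene, had a ratio with an interval from 0.904 to 1.03, and Iscu, Coro1c and Cmklr1 had log2 ratios of 0.25, 0.16 and −0.15. Below 200 UMIs, Sart3, 21.3 kb away, was over 1.5-fold higher, with 82 control and 48 4E-BP1–cKO UMIs and an interval of 1.11 to 2.34. Other neighbours past 1.5-fold had 12 or fewer control UMIs and intervals that held 1. As the Cre allele and the deletion came together by the genotypes given, which of them goes with the lower Tmem119 count cannot be told apart.

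The other 9 genes had ratios between 0.916 and 1.21. Among the secreted products, Cst3 was at 16044 CPM in control and 19351 in 4E-BP1–cKO cells, a ratio of 1.21 (1.19 to 1.22). Sparc was at 1082 and 1294, a ratio of 1.20 (1.14 to 1.26), and Olfml3 at 436 and 484, a ratio of 1.11 (1.02 to 1.20). Within ranges of ribosomal share, which was higher in the 4E-BP1–cKO cells, these genes did not go alike. The Cst3 ratio was 0.957 (0.908 to 1.01) in cells under 2.5%, 1.10 (1.08 to 1.12) from 2.5 to 8% and 1.11 (1.08 to 1.13) from 8 to 14%. Sparc had ratios of 1.247 (1.07 to 1.45), 1.07 (0.998 to 1.14) and 1.17 (1.06 to 1.29) in the same ranges. Olfml3 had ratios of 1.246 (0.983 to 1.57), 1.06 (0.959 to 1.18) and 1.001 (0.840 to 1.19). The part of the ribosomal share in the higher values was not tested.

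Cx3cr1, the gene of the sorted receptor, had 2075 CPM in control and 1981 in 4E-BP1–cKO cells, a ratio of 0.955 (0.918 to 0.992). Both transporters had a ratio of 0.916, with an interval of 0.743 to 1.12 for Slc2a5 and 0.834 to 1.004 for Slco2b1. The intervals of Ltc4s (0.992 to 1.32), Golm1 (0.893 to 1.07) and Crybb1 (0.873 to 1.34) also held 1. For these genes a difference was not detectable at this depth. Summed over the 10 genes, the level was 21120 CPM in control and 24279 in 4E-BP1–cKO cells. Without Cst3 the sums were 5076 and 4928, a ratio of 0.971 (0.947 to 0.995), so the direction of the sum was that of Cst3. Averaged over 4 ranges of ribosomal share, the log2 ratio of the sum was 0.037, against 0.20 over all cells.

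Within narrower ranges of ribosomal share, further genes passed 1.5-fold on small counts. In cells under 2.5% these were Tmem119, Slc2a5 and Crybb1, 3 of 10 genes where 8.57% of all genes tested were over 1.5-fold lower. Slc2a5 had 106 UMIs in control and 13 in 4E-BP1–cKO cells there, a ratio of 0.446 (0.230 to 0.796), while its ratio from 2.5 to 8% was 1.04 (0.793 to 1.35). Crybb1 rested on 59 and 10 UMIs, with an interval of 0.281 to 1.22. Tmem119 was the single gene past 1.5-fold from 2.5 to 8%, where 6.38% of all genes were over 1.5-fold lower, and from 8 to 14%, where 11.6% were. At 14% or more, with 34 control and 22 4E-BP1–cKO cells, Tmem119, Slco2b1 and Crybb1 were past it, against 23.9% of all genes. Slco2b1 had 46 and 13 UMIs there, a ratio of 0.445 (0.220 to 0.837).

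**Figure D2:**
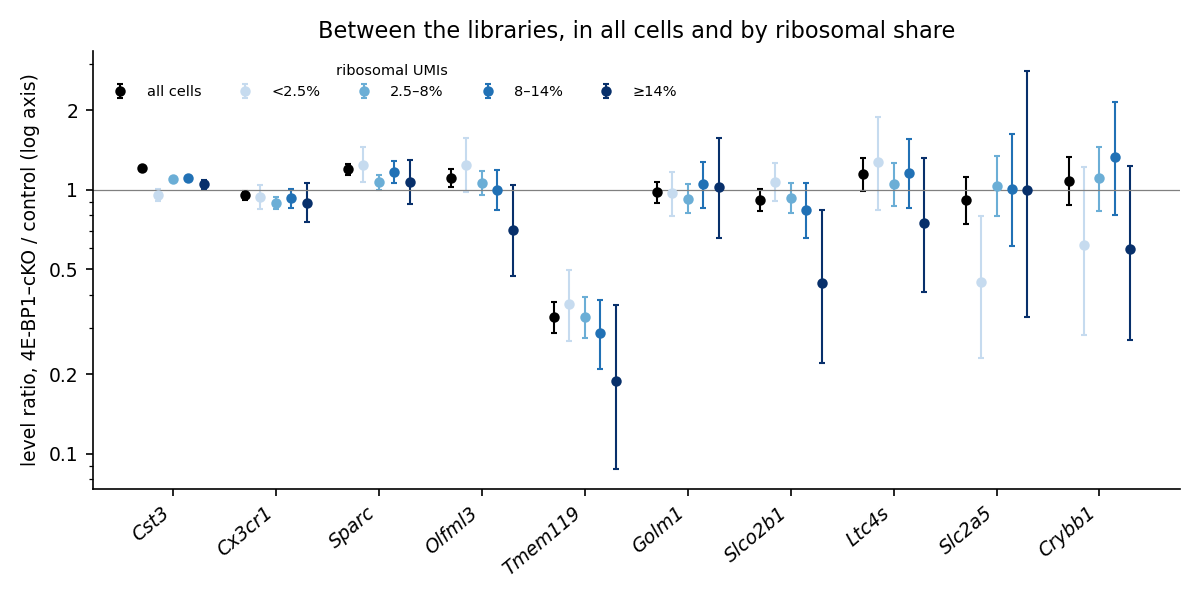
Ratio of the level in 4E-BP1–cKO to that in control cells for each gene, on a log axis, in all kept cells (black) and in 4 ranges of ribosomal share (blue, darker for a higher share), with exact 95% counting intervals. Tmem119 lies between 0.190 and 0.369 in all 5 sets of cells, while the points of the other genes scatter around 1, with the widest intervals at 14% or more.

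A fixed list of 36 further genes of homeostatic microglia, such as the P2Y receptor genes and the complement C1q genes, stayed within 1.5-fold between the libraries, with 0 of 36 past it in either direction, where 3.21% of all genes were past it downwards and 1.19% upwards, and a median log2 ratio of 0.019. At those shares few of 36 genes would be past it, so the count says little about the list. The lowest was Mertk, a phagocytic receptor, at −0.33 (5282 control and 1516 4E-BP1–cKO UMIs), and the highest was Gpr84, a receptor for medium-chain fatty acids, at 0.53 (755 and 393 UMIs).

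In both libraries the homeostatic genes stood at different levels in cells of different ribosomal share. Cells under 2.5% are called ribosome-poor here and cells of 2.5 to 8% intermediate. The ribosome-poor cells were 617 of 1147 in control (53.8%) and 194 of 445 in 4E-BP1–cKO (43.6%), and the intermediate cells were 386 and 162. In ribosome-poor cells 8 of the 10 genes were over 1.5-fold lower than in intermediate cells, in control and in 4E-BP1–cKO, where 19.7% and 22.5% of all genes tested were over 1.5-fold lower. The median log2 ratio of the 10 genes was −1.31 in control and −1.43 in 4E-BP1–cKO, and that of all genes was 0.11 and 0.09.

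Cst3 was the lowest of the 10. It had 20166 CPM in intermediate and 4114 in ribosome-poor control cells, and 22115 and 3937 in 4E-BP1–cKO cells. The ratios were 0.204 (0.199 to 0.209) and 0.178 (0.169 to 0.187). As a share of all UMIs, Cst3 went from 0.411% in ribosome-poor to 2.02% in intermediate control cells, and from 0.394% to 2.21% in 4E-BP1–cKO cells. The other secreted products were also lower in ribosome-poor cells. Sparc had 1427 and 414 CPM in intermediate and ribosome-poor control cells and 1524 and 516 in 4E-BP1–cKO cells, with ratios of 0.290 (0.267 to 0.315) and 0.339 (0.293 to 0.390). Olfml3 had ratios of 0.294 (0.258 to 0.334) and 0.344 (0.275 to 0.427).

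The surface genes followed to a different extent. Cx3cr1 had 2742 CPM in intermediate and 1033 in ribosome-poor control cells, and 2449 and 971 in 4E-BP1–cKO cells, with ratios of 0.377 (0.357 to 0.398) and 0.396 (0.357 to 0.440). Tmem119 had 527 and 281 in control and 174 and 104 in 4E-BP1–cKO cells, with ratios of 0.533 (0.477 to 0.594) and 0.597 (0.420 to 0.837). In cells of 3000 to 6000 UMIs alone, a range chosen after the data were seen, the 4E-BP1–cKO log2 ratio of Tmem119 was 0.0053 instead of −0.74. All 101 4E-BP1–cKO cells of that depth held 54 Tmem119 UMIs, so this value rests on few UMIs, and it has no interval here. The control log2 ratio was −1.10 at that depth, against −0.91 in cells of all depths. Tmem119 stood lower in the 4E-BP1–cKO intermediate cells than in the control ribosome-poor cells.

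The transporters parted. Slco2b1 had 408 CPM in intermediate and 391 in ribosome-poor control cells, and 380 and 419 in 4E-BP1–cKO cells, with ratios of 0.960 (0.865 to 1.06) and 1.10 (0.916 to 1.33). Slc2a5 had ratios of 0.660 (0.517 to 0.838) in control and 0.284 (0.145 to 0.512) in 4E-BP1–cKO. The control value, a log2 ratio of −0.59, was just past 1.5-fold. It was −0.46 with cells weighted equally and −0.037 with cells divided into 3 equal classes of ribosomal share, so its place among the 8 depended on the setting. Slco2b1 was therefore at a similar share of UMIs on both sides of the 2.5% limit, and its intervals held 1 in both libraries. Of the remaining genes, Ltc4s had ratios of 0.326 (0.259 to 0.407) and 0.396 (0.266 to 0.575), and Crybb1 of 0.423 (0.309 to 0.570) and 0.235 (0.109 to 0.458). Golm1 had 0.685 (0.614 to 0.764) and 0.716 (0.582 to 0.877), which was lower with intervals below 1 but not past 1.5-fold. Over a total without ribosomal protein, mitochondrial and early genes, the Golm1 ratios were 0.655 and 0.680. The control value was then past 1.5-fold, as were 9 of the 10 genes in control.

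Depth, nuclear and mitochondrial RNA, and gene length moved with this contrast. Ribosome-poor cells had medians of 2358 and 1891 UMIs against 5158 and 4748.5 in intermediate cells, in control and 4E-BP1–cKO respectively. Malat1, a nuclear noncoding RNA, took 4.88% and 5.11% of UMIs in ribosome-poor cells against 3.09% and 3.38% in intermediate cells. Mitochondrial genes took 1.19% and 1.04% against 0.754% and 0.593%. Among all genes the ratio went with the genomic span of the gene, with a Spearman rho of 0.59 in control and 0.58 in 4E-BP1–cKO over 4761 genes with a RefSeq span. These genes share the same cells and libraries, so the rho is a description. The genes were divided by span into 4 classes of equal size. In the shortest class, up to 15.2 kb, 53.4% and 56.6% were over 1.5-fold lower, and Tmem119, Olfml3, Cst3, Ltc4s and Crybb1, the 5 homeostatic genes of this class, all were in both libraries. In the next class, up to 37.0 kb, 20.9% and 23.8% were over 1.5-fold lower, as were all 3 homeostatic genes there, Cx3cr1, Sparc and Slc2a5, the last in control by little. In the class above, up to 83.4 kb, 4.96% and 9.24% were, and neither of Golm1 (40.8 kb) and Slco2b1 (53.5 kb) was. With these settings, the genes within 1.5-fold were those with the longest spans of the 10. Most genes as short as the shortest 5 were lower too. In control the order by span depended on the setting. Golm1 was past 1.5-fold over the other total described above. With cells weighted equally, Slc2a5 was within 1.5-fold, at −0.46, while the slightly longer Sparc was not, at −1.84. Each of the 10 also lay below the median log2 ratio of its class in both libraries. These medians were −0.655 and −0.729 in the shortest class, −0.042 and −0.054 in the next, and 0.185 and 0.208 in the class above. In 4E-BP1–cKO, Tmem119 (−0.738) and Slco2b1 (0.142) were near theirs. Over the 10 alone the rho was 0.62 in control and 0.36 in 4E-BP1–cKO. No source read here says whether intronic reads were counted. If they did, the counts of long genes hold unspliced nuclear RNA as well as mRNA, and these ratios are then not ratios of mRNA alone. The part of span, depth, and nuclear and mitochondrial RNA in the lower levels was not tested.

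**Figure D3:**
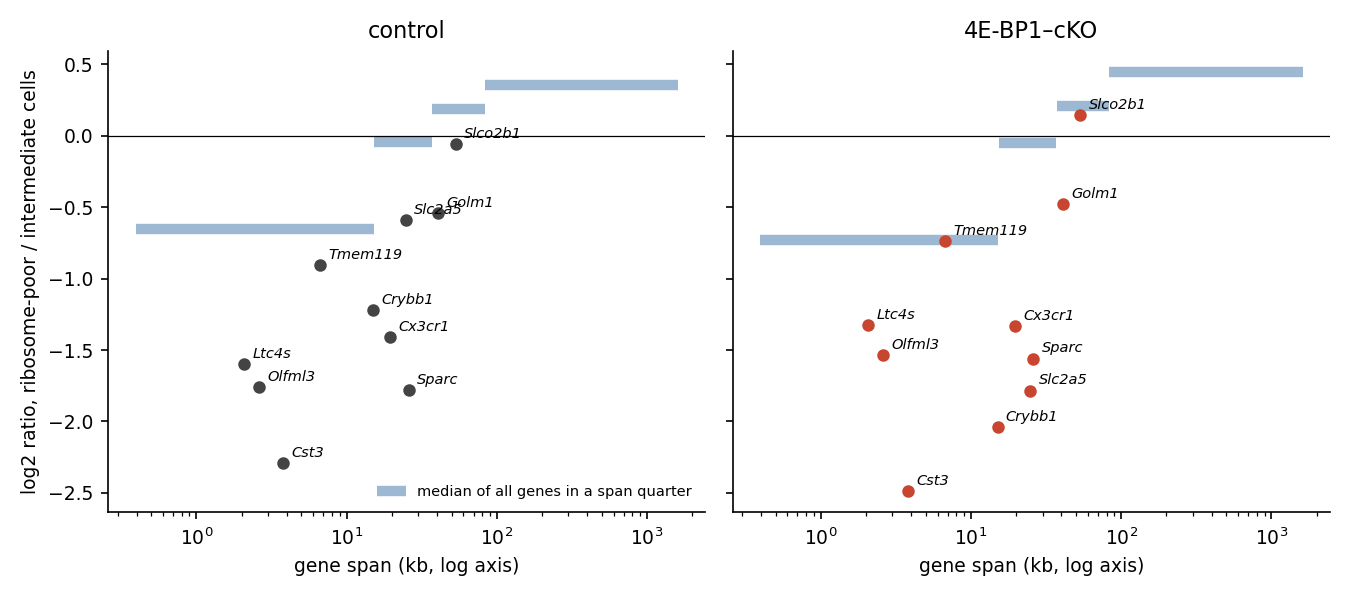
Log2 ratio of the level in ribosome-poor to that in intermediate cells against the genomic span of each gene (kb, log axis), for control (left) and 4E-BP1–cKO (right), with 1 point per homeostatic gene and blue bars for the median of all tested genes in each of 4 classes of span. All points lie under the bar of their class, Tmem119 of 4E-BP1–cKO by little, and Slco2b1, of 53.5 kb, lies near 0 in both panels.

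Of the 36 further homeostatic genes, 19 were over 1.5-fold lower in ribosome-poor cells in each library, beside the 19.7% and 22.5% of all genes. None was over 1.5-fold higher (0 of 36), beside 11.8% of all genes in control and 19.4% in 4E-BP1–cKO. The median log2 ratio was −0.69 in control and −0.71 in 4E-BP1–cKO. The lowest were Rnase4, a secreted ribonuclease gene, at −2.34 in control (116 and 764 UMIs) and Ecscr, a surface protein gene, at −2.82 in 4E-BP1–cKO (7 and 92 UMIs). The highest was the transcription factor gene Mef2a, at 0.39 and 0.55.

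Above 8% ribosomal UMIs the 10 genes again differed from one another. Cst3 was higher again, at 26580 CPM against 20166 in intermediate control cells and 29275 against 22115 in 4E-BP1–cKO cells, with ratios of 1.32 (1.30 to 1.34) and 1.32 (1.29 to 1.35). Cst3 was the gene with the most UMIs in these cells of both libraries, at 2.66% and 2.93%. Sparc was level, with ratios of 1.01 (0.947 to 1.07) and 1.08 (0.984 to 1.18). The other 8 had ratios between 0.602 and 0.922 in both libraries, beside a median log2 ratio of all genes of −0.20 in control and −0.24 in 4E-BP1–cKO and of −0.18 and −0.20 for the 10. Past 1.5-fold lower were 0 of 10 in control and 1 of 10 in 4E-BP1–cKO, against 21.9% and 23.9% of all genes. That gene was Slco2b1, with 380 CPM in intermediate and 229 in ribosome-high 4E-BP1–cKO cells, a ratio of 0.602 (0.480 to 0.751), and a control ratio of 0.755 (0.662 to 0.859). Ribosomal UMIs are part of the total behind these levels. Over a total without ribosomal protein, mitochondrial and early genes, the same 8 genes had ratios between 0.662 and 1.01.

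Across the whole range the genes therefore followed several courses. Cst3 was higher in each successive range in both libraries, from 4114 to 20166, 25742 and 30130 CPM in control and from 3937 to 22115, 28447 and 31604 in 4E-BP1–cKO. Cx3cr1 had its highest value in intermediate cells, at 1033, 2742, 2465 and 1975 CPM in control and 971, 2449, 2289 and 1768 in 4E-BP1–cKO. Slco2b1 was lowest where Cst3 was highest, at 391, 408, 326 and 232 CPM in control and 419, 380, 273 and 103 in 4E-BP1–cKO. Tmem119 had values of 281, 527, 502 and 418 in control and 104, 174, 144 and 79.3 in 4E-BP1–cKO. Its ratio of cells of 8% or more to intermediate cells was 0.922 (0.828 to 1.02) in control, so these were not told apart there, and 0.730 (0.531 to 0.994) in 4E-BP1–cKO. The place of the highest value in control depended on the limits. With the cells of each library divided into 3 equal classes of ribosomal share, the control log2 ratio of the upper to the middle class was 0.18 for Tmem119 and 0.27 for Cx3cr1, against −0.12 and −0.21 with the limits used here. The last range held 34 and 22 cells, so its values rest on few UMIs for the scarce genes, for example 83 and 10 for Tmem119.

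**Figure D4:**
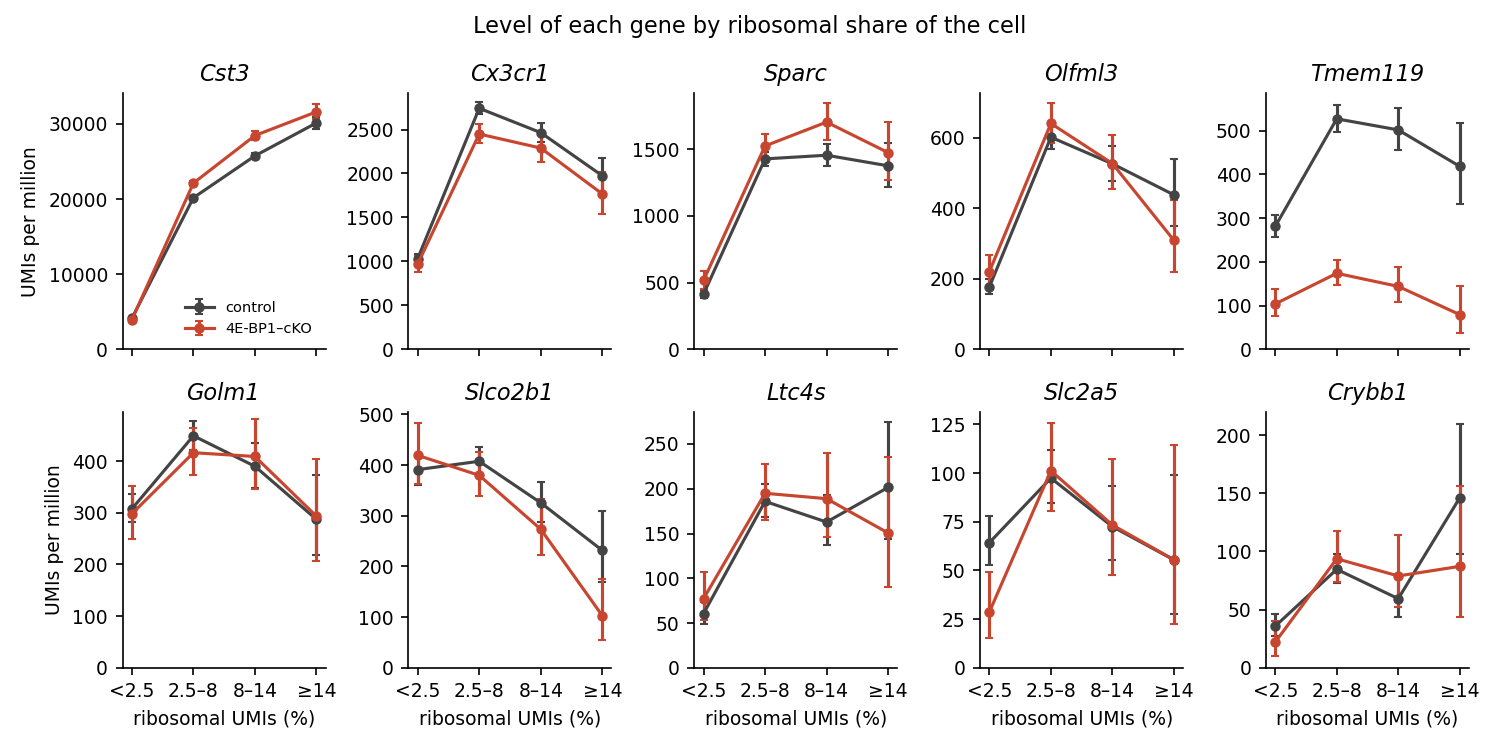
Level of each gene in CPM, on axes that start at 0, in 4 ranges of the ribosomal share of the cell, for control (grey) and 4E-BP1–cKO (red), with exact Poisson 95% intervals. Slco2b1 is not lowest under 2.5%, most others are, Cst3 goes up through all 4 ranges, and the Tmem119 lines of the libraries lie apart throughout.

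Over the 8 combinations of library and ribosomal range, genes whose log2 level was most like the mean profile of the 10 included Cd47 (Pearson r of 0.99), Laptm5 (0.97), Gpr34 (0.97) and Ecscr (0.97), among 2451 genes with at least 500 UMIs. Of these, Cd47 encodes the ligand of SIRPα, Laptm5 a lysosomal membrane protein and Gpr34 a lysophosphatidylserine receptor. Cd47 had 53.4, 116, 107 and 101 CPM over the control ranges. Of the 10 themselves, Cx3cr1 (0.98) and Olfml3 (0.97) lay closest to the mean profile, Tmem119 had an r of 0.52 and Slco2b1 of 0.029. Each of the 10 is itself part of that mean, which raises its r. Their values therefore do not compare with those of the other genes. The 8 points share 2 libraries, and each r is a description.

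Immediate early genes such as Fos, Jun and Egr1 are switched on within minutes by stimulation, and also when tissue is dissociated warm. Within the intermediate cells, the third with the highest early-gene share was therefore set against the third with the lowest, with limits of 1.96% and 3.28% taken over both libraries. There were 141 early-low and 112 early-high cells in control and 42 and 71 in 4E-BP1–cKO. In control, 9 of 10 genes had a lower value in early-high cells, and 2 of 10 were over 1.5-fold lower, against 17.2% of all genes. These were Slco2b1, at 531 and 255 CPM in early-low and early-high cells, a ratio of 0.480 (0.398 to 0.576), and Ltc4s, with 180 and 96 UMIs and a ratio of 0.605 (0.468 to 0.780). In 4E-BP1–cKO, 8 of 10 had a lower value and 0 were over 1.5-fold lower, against 25.1% of all genes. Slco2b1 had a ratio of 0.745 (0.556 to 1.01) and Ltc4s of 0.699 (0.470 to 1.05) there. Sparc was lower in both libraries with intervals under 1, at 0.718 (0.657 to 0.786) and 0.778 (0.669 to 0.905), and so was Cx3cr1, at 0.813 (0.762 to 0.867) and 0.872 (0.775 to 0.983).

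Cst3 was lower in early-high cells of control, with a ratio of 0.853 (0.833 to 0.873), while the 4E-BP1–cKO ratio of 0.983 (0.945 to 1.02) had an interval that held 1. Tmem119 had ratios of 0.847 (0.729 to 0.983) and 1.13 (0.691 to 1.93), the latter from 22 and 66 UMIs. The median log2 ratio of the 10 was −0.31 and −0.28, and that of all genes was −0.12 and −0.08. The counts of genes with a lower value thus stand beside a negative median of all genes. The share of all genes with a lower value was not computed. Early-high cells were deeper, with medians of 5926.5 against 4412 UMIs in control and 5565 against 1903.5 in 4E-BP1–cKO, and had more ribosomal UMIs, at 5.46% against 4.34% and 5.62% against 4.02%. The part of these differences in the ratios was not tested. The direction of the sum depended on the cells taken. Restricted to cells of 3000 to 6000 UMIs, the summed level differed by −0.45 in control and −0.23 in 4E-BP1–cKO on the log2 scale, against −0.27 and −0.073 in all intermediate cells. Over all kept cells, whatever their ribosomal share, it was higher in early-high cells, by 0.31 and 0.25.

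In ribosome-poor cells the early-low and early-high cells were taken anew, with limits of 1.42% and 2.20%. In control, all 10 genes had a higher value in the 179 early-high than in the 223 early-low cells, and 1 was over 1.5-fold higher, against 11.5% of all genes. That gene was Tmem119, with 128 UMIs in early-low and 197 in early-high cells, a ratio of 1.87 (1.49 to 2.35). In 4E-BP1–cKO, 9 of 10 had a lower value in the 91 early-high than in the 48 early-low cells, and 3 were over 1.5-fold lower, against 23.0% of all genes. These were Olfml3 (31 and 31 UMIs, ratio 0.524, 0.308 to 0.892), Ltc4s (10 early-high and 8 early-low UMIs) and Slc2a5 (3 and 4 UMIs), the last pair with intervals that held 1. The median log2 ratio of the 10 was 0.25 in control and −0.24 in 4E-BP1–cKO, and that of all genes was −0.06 and −0.01. The 10 genes were read in the same cells, so their directions are not separate results. The share of all genes that went each way was not computed. Summed over the 10, the ratio was 1.18 (1.13 to 1.23) in control and 0.845 (0.770 to 0.929) in 4E-BP1–cKO. The 4E-BP1–cKO values rested in large part on 1 cell. This early-low cell of 9374 UMIs held 132 of the 724 UMIs of the 10 genes in the early-low cells, and 16 of the 31 of Olfml3. By share of cells with a UMI, Olfml3 was found in 10 of 48 early-low cells (20.8%) and 26 of 91 early-high cells (28.6%), and in control in 27.8% and 35.2%. Without the early-low and the early-high cell of most UMIs of the 10 genes, an alternative chosen after the data were seen, the 4E-BP1–cKO ratio was 0.984 (0.513 to 1.97) for Olfml3 and 0.910 (0.823 to 1.01) for the sum. In this setting 9 of 10 genes still had a lower value in 4E-BP1–cKO, and all 10 a higher value in control. Slc2a5, with 3 and 3 UMIs, was still over 1.5-fold lower in 4E-BP1–cKO. The share of all genes past 1.5-fold was not computed for this setting. The control ratio of the sum was then 1.14 (1.09 to 1.19). A lower level in early-high ribosome-poor cells of 4E-BP1–cKO was therefore not detectable without these cells, and the difference between the libraries was not tested.

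**Figure D5:**
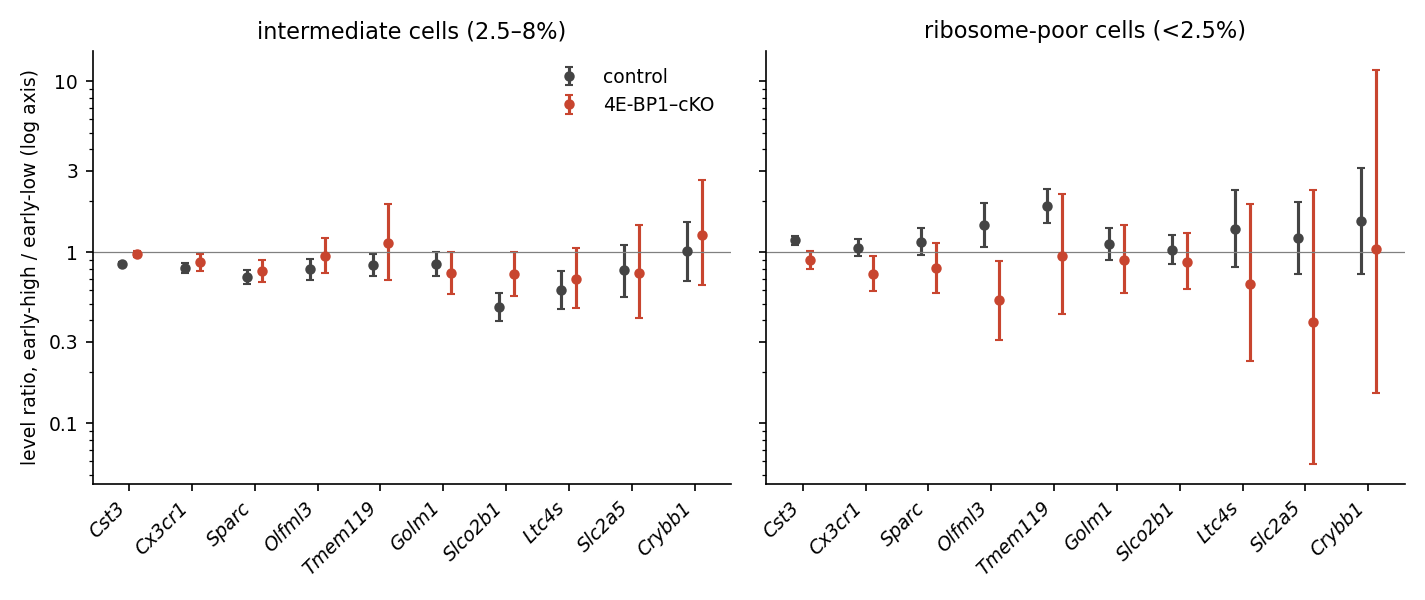
Ratio of the level in early-high to that in early-low cells, on a log axis, in intermediate cells (left) and ribosome-poor cells (right), for control (grey) and 4E-BP1–cKO (red), with exact 95% counting intervals. On the left most points lie below 1 in both libraries, with Slco2b1 lowest at 0.480 in control. On the right the control points lie above 1 and 9 of 10 4E-BP1–cKO points below it, where 1 early-low cell holds 132 of 724 UMIs. The 10 genes were read in the same cells, and the share of all genes on each side of 1 was not computed.

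Single cells rarely showed all 10 genes. On all UMIs, a control cell had a UMI for a median of 6 genes (mean 5.63 ± 2.37, SD over 1147 cells) and a 4E-BP1–cKO cell for 5 (5.29 ± 2.42, SD over 445 cells). All 10 were found in 47 control and 15 4E-BP1–cKO cells, and none in 0 of 1147 control cells, which allows a share of up to 0.321% by the exact interval, and in 1 of 445 4E-BP1–cKO cells (0.225%). At a common 872 UMIs the means were 3.27 (SD 1.5, 1058 cells) in control and 3.23 (SD 1.36, 375 cells) in 4E-BP1–cKO. Ribosome-poor cells then had 2.66 ± 1.29 and 2.59 ± 1.18 genes, and intermediate cells 4.18 ± 1.31 and 3.81 ± 1.27.

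Thinned to this depth, Cst3 and Cx3cr1 varied between intermediate cells by more than counting gives. Cst3 had a mean of 18.1 ± 10.6 UMIs over 316 control cells and 20.2 ± 12.1 over 129 4E-BP1–cKO cells, and a variance of 6.22 and 7.22 times its mean, where counting alone gives a value near 1. Cx3cr1 had a variance of 1.61 and 1.63 times its mean. The other 8 lay between 0.933 and 1.28 in both libraries. This measure grows with the mean, so it does not rank the genes. Divided by the squared mean, the variance beyond counting was 0.29 and 0.31 for Cst3, 0.26 and 0.29 for Cx3cr1 and 0.23 and 0.19 for Sparc, in control and 4E-BP1–cKO. Tmem119 had 0.48 and 0.46, the latter from 129 cells of which 106 had no Tmem119 UMI and 4 had 2 or more. Slc2a5 had 1.44 and 0.61, Ltc4s 1.11 and 0.39, and Olfml3 0.20 and 0.25. Golm1 had 0.17 and 0.72, Slco2b1 −0.02 and 0.87, and Crybb1 −0.96 and −0.88. The values of the scarce genes, and at this depth of Tmem119, rest on few UMIs. No interval was computed for them, so the genes are not ranked by this measure either. Over the 45 pairs of genes, the correlation of their thinned counts across these cells had a median of 0.033 in control and 0.058 in 4E-BP1–cKO. The pair Sparc and Cst3 reached 0.32 and 0.29. In counts this sparse weak values are no finding, and no p is given.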

How the data were processed

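The deposited matrices hold raw UMI counts, which the authors made with Cell Ranger 8.0.1 on mm10, per the submitters' processing notes and the file headers. Neither the annotation release nor the counting of introns is given in the sources read. Cell calling had been applied, and neither normalization nor a doublet filter had been. Libraries were assigned by their labels. Members, gene lists and limits were chosen with earlier results of these data known.

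UMIs were summed over kept cells and given per 1000000 UMIs (CPM). Log2 ratios used a pseudocount of 1 CPM. Ratios have exact conditional binomial intervals, counts exact Poisson intervals and shares exact Clopper-Pearson intervals. Those of ratios and counts cover counting error only, and those of shares cover the sampling of cells within a library. No p-value was computed because each genotype had 1 library. Ribosomal share used 85 ribosomal protein genes. Percentages of all genes are over those with at least 200 UMIs in both libraries together. Thinning drew 872 UMIs per cell, the 10th percentile. Named genes were the 10 members, the extremes of the list of 36, and the 5 most similar profiles, of which 1 is not reported here. Malat1 and the neighbours of Tmem119 were chosen after their values were seen, as was the analysis of gene span. Coordinates, spans and promoters came from RefSeq on GRCm38.p6. Cx3cr1, Slco2b1 and Crybb1 overlap other genes (Gm33858, Gm34280 and Cryba4, with 29, 86 and 101 control UMIs), and their counts are uncertain to that extent.

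Tools were Python 3.11.15, numpy 2.4.6, scipy 1.17.1, pandas 2.3.3, scanpy 1.11.5 (Scrublet), R 4.3.3 and edgeR 4.0.16 (TMM factors only). Simulated counts of 4887 genes with 200 changed genes were drawn with counting error alone, for 4E-BP1–cKO against control. The interval held the true ratio for 95.8% of 1000 unchanged genes, and 100% of 50 genes lowered to 0.3 were past 1.5-fold. This checks the calculation of the intervals, not their coverage where counts vary between cells by more than counting gives. In thinned intermediate cells the Cst3 variance was 6.22 and 7.22 times its mean, in control and 4E-BP1–cKO. That of Cx3cr1 was 1.61 and 1.63 times its mean, and the other genes lay between 0.933 and 1.28. Over thinned cells of every ribosomal share, the variance was larger for several genes. It was 14.1 and 14.1 times the mean for Cst3, 1.93 and 1.73 for Cx3cr1 and 1.43 and 1.58 for Sparc. For Slco2b1 it was 1.08 and 1.35. Intervals that cover counting error alone do not hold this variation. Alternatives were doublet removal, cell filters, totals, cell weights, TMM, pseudocount, thinning, bin limits and early-gene definitions. The 3′ counts of the floxed gene do not check its deletion and are not given.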

Additional observations from a re-analysis of the deposited data

Results flagged for a closer look

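The barcodes left out by the filters also carried the homeostatic genes, at 11108 CPM over 69 control barcodes (10495 to 11746) and 13513 over 29 4E-BP1–cKO barcodes (12332 to 14777), against 21120 and 24279 in kept cells. A count of 0 would have allowed 27.1 and 84.3 CPM. These barcodes had a median of 8.92% and 9.28% mitochondrial UMIs. Tmem119 stood at 343 and 140 CPM in them, from 38 and 5 UMIs.

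Olfml3 went in opposite directions with early-gene level in ribosome-poor cells, with a log2 ratio of early-high to early-low cells of 0.53 in control (104 and 87 UMIs) and −0.93 in 4E-BP1–cKO (31 and 31 UMIs). Of the 31 UMIs in early-low 4E-BP1–cKO cells, 16 came from 1 cell. Without the early-low and the early-high cell of most UMIs of the 10 genes, the log2 ratio was −0.02 there and 0.52 in control, so the 4E-BP1–cKO value rested on that cell. The difference between the libraries was not tested. Early-low cells of the 4E-BP1–cKO library were the shallowest of these sets, with a median of 1513.5 UMIs against 1934 in early-high cells, and 2280 and 2395 in control.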

How the results depend on the processing

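With 1 library per genotype nothing here separates genotype from library. Tmem119 was the gene past 1.5-fold under all 12 alternatives, stricter and looser fold limits included, with log2 ratios of −1.80 to −1.35, and the other 9 stayed between −0.35 and 0.53. With a minimum of 20 UMIs, 11.3% of all genes were over 1.5-fold lower and 4.32% higher. All values below are log2 ratios of the sum of the 10 genes, control first and 4E-BP1–cKO second where a pair is given. They moved past counting error under many settings, and the cause was not tested. Between the libraries the sum was 0.20, and 0.22 over a total without ribosomal protein, mitochondrial and early genes, 0.29 with cells weighted equally, 0.24 with TMM, 0.037 averaged within ribosomal ranges, 0.36 after thinning, 0.41 in cells of 3000 to 6000 UMIs and −0.043 without Cst3 (the last pair chosen after seeing the data). In ribosome-poor against intermediate cells it was −1.96 and −2.09, and −2.02 and −2.16 over the other total, −1.98 with equal weights in 4E-BP1–cKO, −1.59 and −2.00 with tertiles of ribosomal share, −2.48 and −2.65 in cells of 3000 to 6000 UMIs and −1.24 and −1.17 without Cst3. In those 3000 to 6000 UMI cells Tmem119 went from −0.91 to −1.10 in control and, on few UMIs, from −0.74 to 0.0053 in 4E-BP1–cKO. At 8% or more it was 0.28 and 0.30, and 0.40 and 0.44 over the other total, 0.48 and 0.47 with equal weights, 0.81 and 0.52 with tertiles, 0.089 and 0.019 at 3000 to 6000 UMIs and −0.17 and −0.16 without Cst3. By early-gene level it was −0.27 and −0.07, so its sign was not stable: −0.21 and 0.0038 over the other total, −0.10 and 0.13 with equal weights, 0.31 and 0.25 in all kept cells, −0.13 and 0.025 split at the median, −0.45 and −0.23 at 3000 to 6000 UMIs, −0.39 and −0.25 without Cst3, and in control −0.23 with the 10% mitochondrial limit and −0.30 with 3 early genes. In ribosome-poor cells it was 0.24 and −0.24, and 0.19 and −0.14 without the early-low and the early-high cell of most UMIs of the 10 genes (also chosen after seeing the data). Members detected per cell were 3.27 and 3.23 thinned and 5.63 and 5.29 on all UMIs. Doublet removal with Scrublet took out 4 and 11 cells, against 10.5 and 1.58 expected by the rate set for it here. It moved none of these sums past counting error. The study removed doublets with another tool, scDblFinder, and kept fewer cells of each genotype than were kept here. Results on the study's own cells were not computed. No paired analysis was possible because each genotype had 1 library.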
